A study of Coprinopsis cinerea AmutBmut pab1-1 with 7 samples.

Results

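The 3 genes described here, protein IDs 399446, 441597 and 500954, encode the acetate transporters of *Coprinopsis cinerea* that the study listed among plasma membrane transporters, all annotated with the GPR1/FUN34/SatP family domain. They were taken by that listing from the 14242 gene models counted by Quant-Seq, a 3′ mRNA sequencing method that yields about one fragment per transcript. The listing held only genes that the study had found differentially expressed in these same libraries, so a call in the present fit is not independent evidence for any of them. The study's text named acetate among the transporters downregulated in the mutants, without giving the gene there. Vegetative mycelium was profiled in the *cre1* deletion strains Δcre1-43 and Δcre1-91 (2 libraries each) and in the wild type, strain AmutBmut *pab1-1* (3 libraries). Colonies of all strains were grown in the dark on yeast extract, malt extract and glucose medium with 0.2% glucose, covered by a cellophane sheet, for 84 h at 28°C. Each mutant strain came from a separate transformant of the wild-type background, made with Cas9 ribonucleoproteins and a *pab1* repair cassette. The mutants therefore carry a *pab1* marker that the *pab1-1* wild type does not, and effects of the marker and of *cre1* loss cannot be told apart. By PCR screening and sequencing, the study placed the *pab1* cassette at the *cre1* locus in both strains. It also noted that genomic DNA of both strains still gave an internal *cre1* PCR product after many cycles. Its authors nonetheless stated confidence that both are deletion mutants, and cited the Quant-Seq results for this.

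Proteins of the GPR1/FUN34/SatP family are small membrane proteins that carry acetate, and in some organisms succinate or ammonium, across the plasma membrane. Ady2 of *Saccharomyces cerevisiae*, AcpA of *Aspergillus nidulans* and SatP of *Escherichia coli* are characterized members. Acetate taken up by fungal cells is activated to acetyl-CoA and can feed the glyoxylate cycle, and in *S. cerevisiae* Ady2 is made on nonfermentable carbon and repressed by glucose. Cre1 is the zinc finger transcription factor through which glucose represses genes for the use of other carbon sources in ascomycetes. The comparison asks how the transcripts of these 3 genes stood in the *cre1* strains while glucose was in the medium.

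Between 6232853 and 8514379 reads were assigned per mutant library, against 10196878 to 10784958 per wild-type library. Every mutant library was thus shallower than every wild-type library, and depth and genotype cannot be told apart, although thinning all libraries to the smallest total left each call on the 3 genes as it was. Reads assigned to the *cre1* model itself were present in all libraries. They averaged 8.44 ± 0.390 counts per 1000000 reads of the TMM-scaled library size (CPM) in the Δcre1-43 libraries and 7.38 ± 1.58 CPM in the Δcre1-91 libraries (SD, n = 2 each), against 9.30 ± 1.80 CPM in the wild type (SD, n = 3). Neither difference passed the edgeR quasi-likelihood test (log2 fold change -0.14, adjusted p = 0.851 and -0.33, adjusted p = 0.495), so the count of the targeted gene does not tell the libraries labelled as mutants from those of the wild type. Reads were also counted over 400 bp past the 3′ end of the *cre1* coding sequence. How much of the counted region remained in the mutants was not tested, so this count is a limited check of the deletion. Below, the strain names stand for the libraries labelled with them, and every direction rests on those labels. No defining markers of vegetative mycelium are annotated in the sources used here, and the tissue label was not checked.

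The 3 genes lay on different scaffolds of the genome assembly (strain Amut1Bmut1 *pab1-1*, v1.0), and their models had similar sizes. Model 399446 ran on the reverse strand of scaffold 89 from 49494 to 50768, with 4 coding exons and a coding length of 687 bases (228 codons besides the stop). Model 441597 ran on the forward strand of scaffold 2 from 234457 to 235971, with 5 coding exons and 696 coding bases (231 codons). Model 500954 ran on the reverse strand of scaffold 189 from 33412 to 34733, with 4 coding exons and 648 coding bases (215 codons). These spans include the 400-bp extension at the 3′ end over which reads were also counted, and no untranslated regions are annotated. All 3 models had a second coding exon of 173 bases, a length that 1.17% of all models held in some coding exon. Models 399446 and 500954 also shared a last coding exon of 118 bases (a length held by 1.95% of models) and had coding exons of 253 and 256 bases before it. The 3′ end of 399446 overlapped that of the convergent forward-strand model 450587 by 68 bases, and whether counting used the strand is not stated in the sources used here. The other two models overlapped no neighbor.

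The 3 genes did not move together. Transcripts of 399446 and 441597 were more abundant in every *cre1* library than in every wild-type library. For Δcre1-43 alone this held in 21.1% of all genes, and for Δcre1-91 alone in 21.7%. The share for both strains at once was not taken. Model 500954 was close to the detection limit throughout and had its highest counts in the wild type. By mean CPM, the level of 441597 was far above the others in every strain, at 137 in Δcre1-43, 180 in Δcre1-91 and 55.7 in the wild type. The level of 399446 was 9.20, 3.12 and 0.683 CPM in the same order of strains. That of 500954 was 0, 0.254 and 0.655 CPM. Thus 399446 and 500954 had almost equal low levels in the wild type and unlike levels in the mutants. In bulk mycelium, fewer expressing cells and less RNA per cell cannot be told apart.

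**Figure D1:**
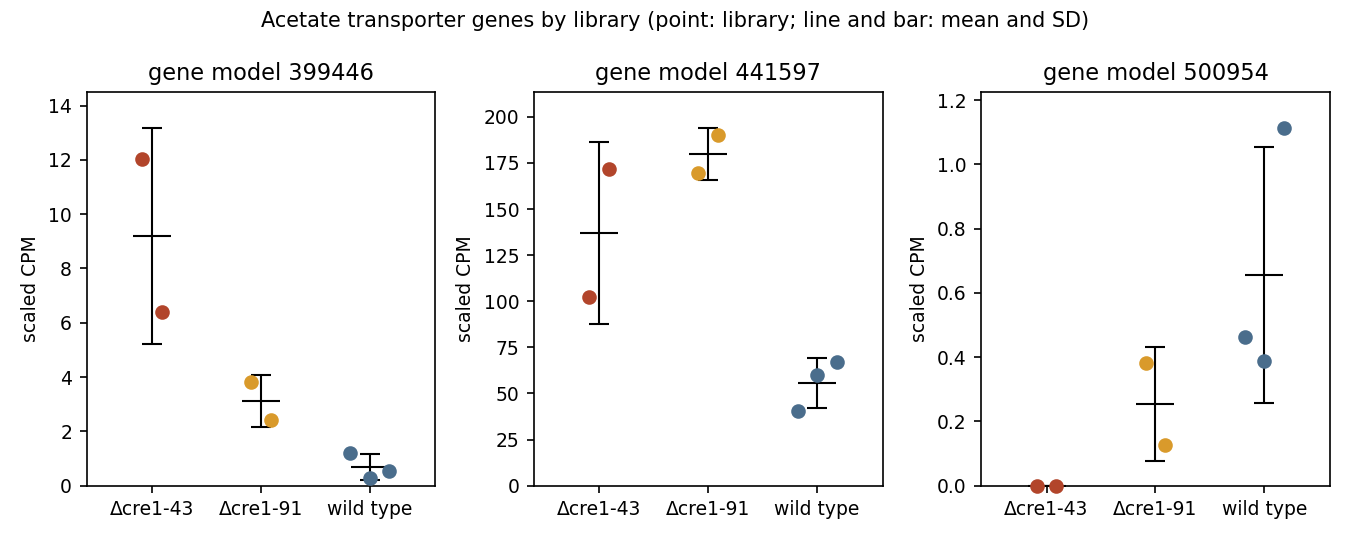
Scaled CPM (linear axes from 0) of the 3 acetate transporter genes in each library of Δcre1-43, Δcre1-91 and the wild type; points are libraries, lines and bars the mean and SD. All 4 mutant libraries sit above the 3 wild-type libraries for 399446 and 441597, and below them for 500954. Over all genes, the libraries of Δcre1-43 alone were above the wild type in 21.1% and below it in 20.3%. For Δcre1-91 alone the shares were 21.7% and 22%.

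Of the 2 genes called, 399446 had the larger fitted change in each mutant. It was assigned 80 and 54.5 reads in the Δcre1-43 libraries, 30 and 19 reads in the Δcre1-91 libraries, and 13, 3 and 6 reads in the wild-type libraries. Rounded to whole reads and scaled for depth, these were 12.0 and 6.39 CPM in Δcre1-43, 3.81 and 2.43 CPM in Δcre1-91, and 1.20, 0.292 and 0.557 CPM in the wild type. The 3 strains did not overlap, with the Δcre1-43 libraries highest and the wild type lowest. The mean was 9.20 ± 3.98 CPM in Δcre1-43 and 3.12 ± 0.972 CPM in Δcre1-91 (SD, n = 2 each), against 0.683 ± 0.467 CPM in the wild type (SD, n = 3). Counting error alone gave 95% intervals of 7.43 to 10.5, 2.31 to 4.13 and 0.433 to 1.05 CPM for the summed counts of 134, 49 and 22 reads, in the same order of strains.

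In the edgeR quasi-likelihood test over all genes, 399446 was 13.0-fold higher in Δcre1-43 than in the wild type (log2 fold change 3.70 ± 0.48 SE, adjusted p = 1.89e-05). The 95% interval of that fold ran from 6.54 to 26.0. It was 4.46-fold higher in Δcre1-91 (log2 fold change 2.16 ± 0.52 SE, adjusted p = 0.00579), with an interval from 2.10 to 9.48. Both exceeded the limits used for a call, an adjusted p of at most 0.05 and a change of at least 2-fold. The call in Δcre1-43 held without any 1 of the 7 libraries (adjusted p at most 0.0170 over all alternatives). The call in Δcre1-91 was lost without Δcre1-91 replicate 1 (log2 fold change 1.77, adjusted p = 0.115) and with limma voom (2.29, adjusted p = 0.0750). Wild-type replicate 1 held 13 of the 22 wild-type reads, and without it the log2 fold changes were 4.38 in Δcre1-43 and 2.83 in Δcre1-91. The 3′ end of the adjoining model 450587 overlaps that of 399446. Model 450587 also had higher means in both mutants (12.3 CPM in Δcre1-43 and 10.3 CPM in Δcre1-91) than in the wild type (5.75 CPM). The part that reads from the shared 68 bases had in the counts of 399446 was not tested.

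Model 441597 carried most of the acetate transporter reads in every library. Its counts were 680 and 1452.67 in Δcre1-43, 1338 and 1484.14 in Δcre1-91, and 437, 614 and 720 in the wild type, the fractions being as deposited. In scaled units the libraries had 102 and 172 CPM in Δcre1-43, 170 and 190 CPM in Δcre1-91, and 40.4, 59.8 and 66.8 CPM in the wild type. Each mutant library was above each wild-type library, and Δcre1-43 replicate 1 was the lowest of the mutant libraries. The means were 137 ± 49.3 CPM in Δcre1-43 and 180 ± 14.3 CPM in Δcre1-91 (SD, n = 2 each), against 55.7 ± 13.7 CPM in the wild type (SD, n = 3).

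By the same edgeR test, 441597 was 2.46-fold higher in Δcre1-43 than in the wild type (95% interval 1.79 to 3.39, log2 fold change 1.30 ± 0.22 SE, adjusted p = 0.000374). It was 3.23-fold higher in Δcre1-91 (95% interval 2.35 to 4.44, log2 fold change 1.69 ± 0.22 SE, adjusted p = 1.68e-05). The Δcre1-91 call held under every alternative and without any 1 library (adjusted p at most 0.0159). The Δcre1-43 call was lost without Δcre1-43 replicate 2 (log2 fold change 0.86, adjusted p = 0.0577) and held without replicate 1 (1.63, adjusted p = 0.00213).

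Model 500954 was barely detected. Its counts were 0 and 0.33 in the Δcre1-43 libraries, 3 and 1 in the Δcre1-91 libraries, and 5, 4 and 12 in the wild-type libraries, at a detection floor taken as 3 reads. Both mutant strains were at or under that floor, equal to 0.277 to 0.451 CPM depending on the library, and every mutant library was below every wild-type library. Summed over libraries, 0 rounded reads in Δcre1-43 allow up to 0.244 CPM, the 4 reads in Δcre1-91 correspond to 0.255 (95% interval 0.0694 to 0.652), and the 21 wild-type reads to 0.659 (0.408 to 1.01). The wild-type mean was 1.63 times the mean CPM of 3 reads in the Δcre1-43 libraries (0.403 CPM). That ratio leaves out the counting error of the wild type, whose interval starts at 0.408. It is therefore not a lower bound on the fold. The summed rate in Δcre1-91 was 0.387 of that in the wild type, with a counting interval of 0.0965 to 1.15 that includes equality.

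Neither difference of 500954 passed the edgeR test (adjusted p = 0.0693 in Δcre1-43 and 0.523 in Δcre1-91). With limma voom the Δcre1-43 difference passed (adjusted p = 0.0346). Over the alternatives its adjusted p ran from 0.0346 to 0.328. The edgeR low-count filter removed the gene before testing.

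Counted together, 2 of the 3 genes were called in Δcre1-43, both higher, where 6.97% of all 14242 genes were called and 4.82% were called higher. In Δcre1-91 the same 2 genes were called higher, against 8.32% of all genes called and 4.97% called higher. The study chose the genes on these libraries, and the 3 wild-type libraries serve in both comparisons, so nothing further is read from these counts. Libraries without overlap were common over all genes, with every Δcre1-43 library above the wild type in 21.1% of genes and every Δcre1-91 library above it in 21.7%. For libraries below the wild type, as in 500954, the shares were 20.3% and 22%. Shares for the 4 mutant libraries together were not taken. With the 4 mutant libraries taken as a group, 399446 had a log2 fold change of 2.93 ± 0.44 SE (edgeR adjusted p = 7.13e-05) and 441597 of 1.50 ± 0.19 SE (adjusted p = 1.29e-05), while 500954 was not called (adjusted p = 0.0598). In that comparison 7.81% of genes were called. Without rounding of the deposited counts 500954 passed it (adjusted p = 0.0494), as it did with limma voom (0.0367). Nothing in the labels says that replicates came from separate cultures, so the p values measure only the spread between these libraries.

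The strains Δcre1-43 and Δcre1-91 were then compared with each other. None of the 3 genes was called in this comparison by edgeR, where 0.246% of all genes were called and 11.2% had an unadjusted p under 0.05, as did 399446 alone of the 3. Model 399446 was 2.92-fold higher in Δcre1-43 than in Δcre1-91 (log2 fold change 1.55 ± 0.47 SE, 95% interval 0.56 to 2.53), and both Δcre1-43 libraries were above both Δcre1-91 libraries, as in 16.6% of all genes. Its edgeR p was 0.00386 before adjustment and 0.167 after it, so that it did not pass over all genes. The adjusted p ran from 0.0609 to 0.512 over the alternatives apart from a crossed pairing. With the replicate numbers of the mutants crossed, which was added after seeing the data, 399446 did pass. That pairing was picked from these same libraries and has no basis in the labels, so nothing is read from it. Model 441597 had a log2 fold change of -0.39 ± 0.24 SE (95% interval -0.90 to 0.12, adjusted p = 0.608), and its Δcre1-43 and Δcre1-91 libraries overlapped. For 500954 both strains were at or under the floor, and no fold is given. By mean CPM, 399446 thus stood in the order Δcre1-43, Δcre1-91, wild type, and 441597 in the order Δcre1-91, Δcre1-43, wild type. In both orders, by the edgeR fit to all 7 libraries, the difference between the mutant strains did not pass after adjustment. That between the lower mutant strain and the wild type did.

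**Figure D2:**
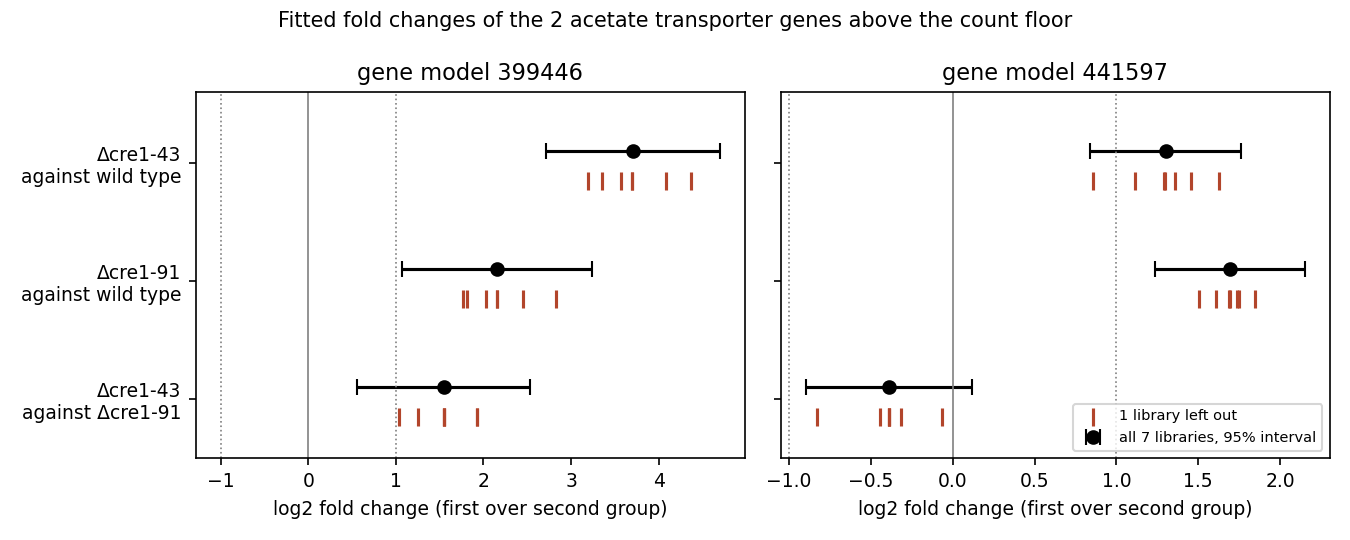
Log2 fold change (first over second group) of 399446 and 441597 in the 3 strain comparisons; black points and bars are the edgeR fit to all 7 libraries with its 95% interval, red ticks the fits with 1 library left out, and dotted lines the 2-fold limit. The 2 mutant comparisons of 399446 are at 3.70 and 2.16 and those of 441597 at 1.30 and 1.69, with 1 left-out value of 441597 in Δcre1-43 below the limit, at 0.86.

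The fitted biological coefficient of variation, the spread between libraries of a strain beyond counting error, was 0.305 for 399446, 0.200 for 441597 and 0.463 for 500954. Within strains, the highest library of 399446 had 1.88 times the CPM of the lowest in Δcre1-43, 1.57 times in Δcre1-91 and 4.11 times in the wild type. For 441597 these ratios were 1.68, 1.12 and 1.66. Thus 441597, with 437 or more reads per library, was the steadier of the pair, and the wild-type level of 399446 was the least certain.

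The study's list held 51 other genes for plasma membrane transporters, again selected as differentially expressed in these libraries. Of these, 19 were called higher, 23 lower and 9 were not called in Δcre1-43, with a median log2 fold change of -0.56 against 0 over all genes. In Δcre1-91, 16 were called higher, 22 lower and 13 were not called, with a median of -0.61 against 0 over all genes. The 2 raised acetate transporters therefore stood with the 19 and 16 genes called higher, in a list with many calls in both directions. Ordered by fitted fold change among all 54 listed genes, 399446 was 2nd from the top in Δcre1-43 and 6th in Δcre1-91, and 441597 was 17th and 11th.

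Among 7 listed major facilitator superfamily (MFS) genes with a sugar transporter domain, 4 were called higher and 2 lower in Δcre1-43, and 4 higher and 3 lower in Δcre1-91. All 4 of those annotated as sugar/inositol transporters were higher in both mutants. Model 496081 averaged 74.7 CPM in Δcre1-43 and 74.5 CPM in Δcre1-91, against 8.85 CPM in the wild type (log2 fold changes 3.08 and 3.07). The log2 fold changes of 502428 were 1.37 in Δcre1-43 and 1.54 in Δcre1-91, those of 496145 were 1.28 and 1.01, and those of 11944 were 1.24 and 2.01. In Δcre1-43 the fitted change of 399446 (3.70) was above those of all 4 genes, and in Δcre1-91 its change (2.16) was below that of 496081 and above those of the other 3. The changes of 441597 (1.30 and 1.69) were within the range of the 4 in both mutants.

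Of the 13 other MFS genes, 7 were called higher and 5 lower in each mutant. Of 7 ABC transporter genes, which use ATP to move their substrates, 2 were higher and 4 lower in Δcre1-43, and 1 was higher and 3 were lower in Δcre1-91. No gene of the 4 oligopeptide transporters was higher, and 3 were lower in Δcre1-43 and 4 in Δcre1-91. The 20 remaining genes gave 6 higher and 9 lower in Δcre1-43, and 4 higher and 7 lower in Δcre1-91. These included 469456, a SLAC1/Mae1 family gene, a family to which the malate permease Mae1 of *Schizosaccharomyces pombe* belongs. It averaged 1.22 ± 0.450 CPM in Δcre1-43 and 2.61 ± 0.434 CPM in Δcre1-91, against 3.23 ± 0.271 CPM in the wild type, and was not called in either mutant by edgeR (adjusted p = 0.0509 and 0.734).

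**Figure D3:**
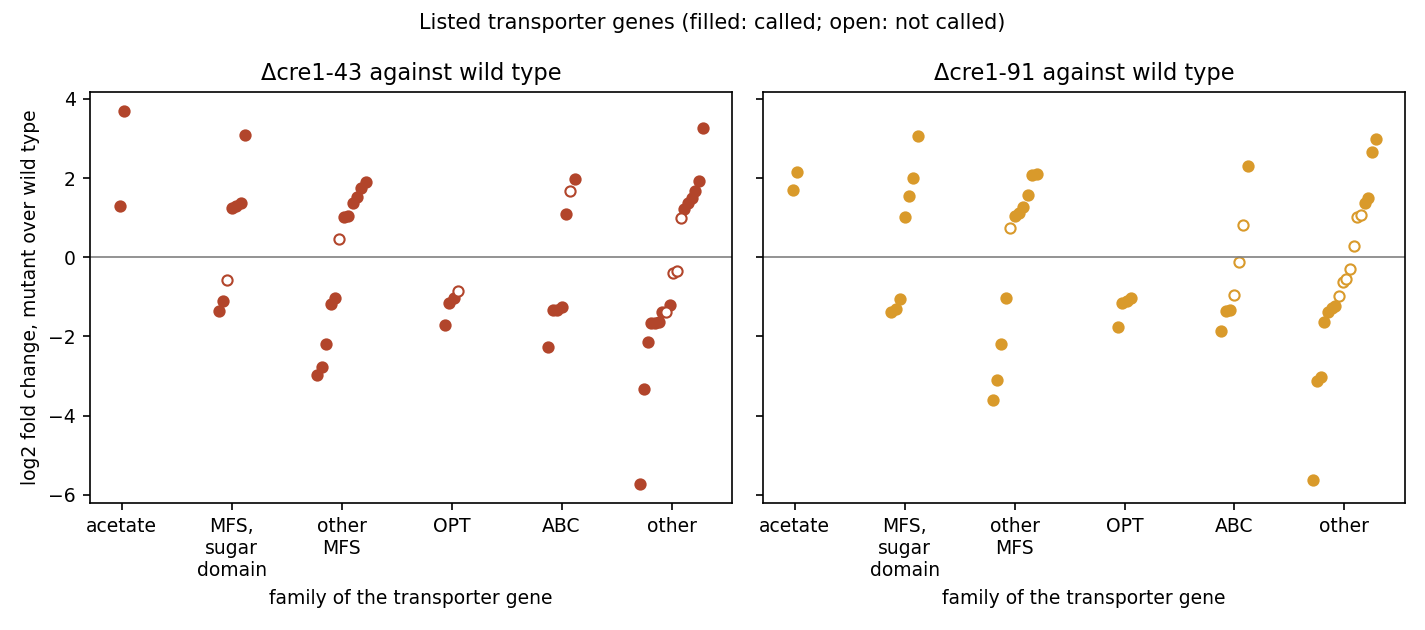
Log2 fold change over the wild type of the listed transporter genes by family in Δcre1-43 (left, 50 of 54 genes) and Δcre1-91 (right, 49 of 54); filled points were called and open points were not. Genes at the 3-read floor in either group of a comparison, among them 500954, are not drawn. The 2 drawn acetate transporters lie above 0 in both panels, and no oligopeptide transporter (OPT) does.

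The gene models beside each acetate transporter were examined to see whether neighbors moved with it. Over all genes, 4.82% were called higher in Δcre1-43 and 4.97% in Δcre1-91. Of the 3 models on either side of 399446, 5 of 6 were above the floor, and only the overlapping 450587 was called, in Δcre1-43 (log2 fold change 1.09, edgeR adjusted p = 0.00933). In Δcre1-91 its log2 fold change was 0.84 (edgeR adjusted p = 0.0384), under the 2-fold limit, and no neighbor was called. The log2 fold changes of 399446 were 3.70 in Δcre1-43 and 2.16 in Δcre1-91. In CPM, 450587 averaged 12.3 in Δcre1-43, 10.3 in Δcre1-91 and 5.75 in the wild type, against 9.20, 3.12 and 0.683 for 399446. How much of the rise of 399446 came from reads in the shared bases was not tested.

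Around 441597, 5 of 6 neighbors were above the floor, and 3 were called higher in Δcre1-43, where 4.82% of all genes were. Model 98323, upstream and the farthest of the 3, had log2 fold changes of 1.72 in Δcre1-43 and 1.73 in Δcre1-91 and was called in both mutants. Model 441596, also upstream, had log2 fold changes of 1.49 in Δcre1-43 and 0.15 in Δcre1-91. It was called in Δcre1-43 only, and narrowly (edgeR adjusted p = 0.0483). The first model downstream, 514610, on the opposite strand and 160 bases from the end of the counted region, had 1.15 in Δcre1-43, where it was called, and 0.40 in Δcre1-91. None of the 3 differed between the mutant strains by the edgeR test (adjusted p = 0.371 for 441596 and 0.290 for 514610). They had means of 4.55, 5.85 and 19.8 CPM in Δcre1-43 for 441596, 98323 and 514610, against 137 CPM for 441597. Around 500954, 4 of 6 neighbors were above the floor, with log2 fold changes between -0.44 and 0.23 in Δcre1-43 and between -0.36 and 0.58 in Δcre1-91, and none was called.

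**Figure D4:**
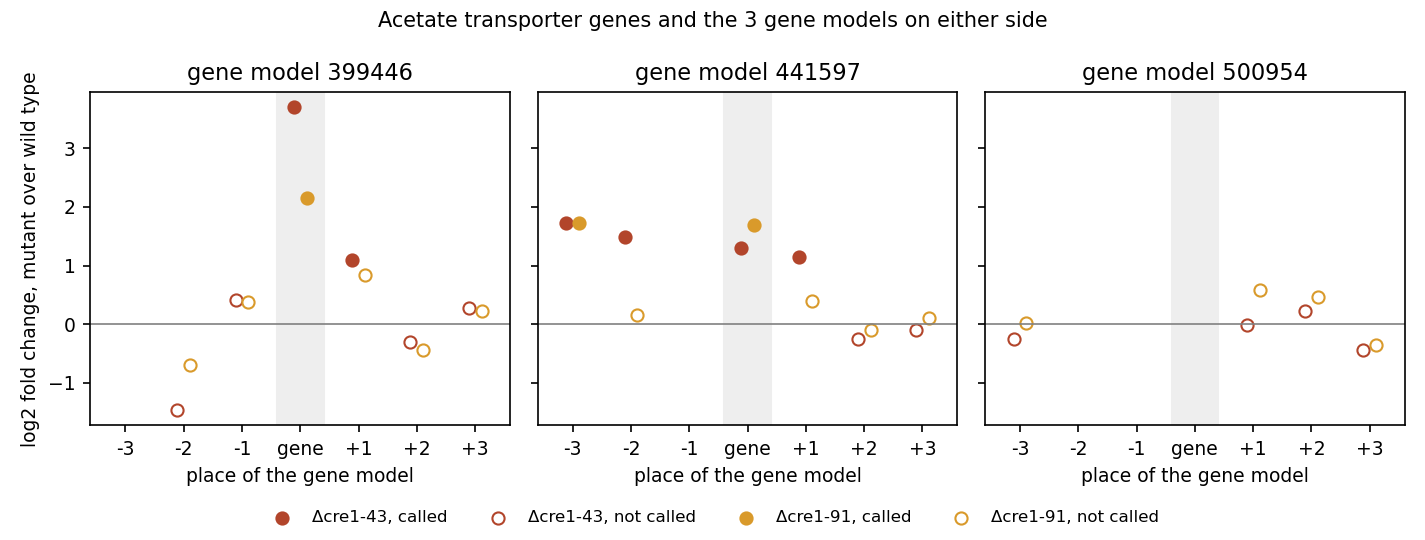
Log2 fold change over the wild type of each acetate transporter gene (shaded) and of the 3 gene models on either side, numbered in the direction of its transcription, in Δcre1-43 and Δcre1-91; filled points were called. Models at the floor in either group are not drawn, 500954 included. Models 98323 (place -3), 441596 (-2) and 514610 (+1) beside 441597 are filled for Δcre1-43, and no neighbor of 500954 is filled.

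For the acetate transporters with a mean of at least 10 reads, the genes most like them were found by Pearson's r of log2(CPM + 0.5) over the 7 libraries among 9792 genes. These libraries share strain differences, so r describes likeness of pattern only. The highest values for 441597 were 0.992 for 362458, a glycoside hydrolase gene of the family later renamed as lytic polysaccharide monooxygenases, 0.992 for 486833 and 0.990 for 542729. Model 362458 averaged 40.8 CPM in Δcre1-43 and 62.0 CPM in Δcre1-91, against 11.8 CPM in the wild type. Its order of strains was that of 441597. For 399446 the highest values were 0.997 for 444313, 0.989 for 437803 and 0.986 for 503621, none of them annotated here. Model 503621 averaged 6.20 CPM in Δcre1-43 and 4.01 CPM in Δcre1-91, against 1.75 CPM in the wild type. Model 444313 had the highest r but a small change, with 14.8 CPM in Δcre1-43, 13.1 CPM in Δcre1-91 and 11.4 CPM in the wild type. Between 399446 and 441597 themselves r was 0.62. The genes named above were picked as the highest of 9792, so their values set no scale for this one.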

How the data were processed

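The authors prepared Quant-Seq 3′ libraries, trimmed reads with bbduk, mapped them with STAR 2.6.1a to the Amut1Bmut1 *pab1-1* genome, v1.0, and counted them with featureCounts over coding sequence plus a 400-bp 3′ overhang. The deposited table holds estimated counts made in this way. Of all values 20.3% were not whole (4 of the 21 values of the acetate transporters), and how reads were divided is not given in the sources used here. The count test had been planned on raw counts, so these were first rounded. The deposited scaled signal table equals counts over TMM-scaled library sizes (largest relative difference 9.87e-15) and was not used further.

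All 14242 genes and 7 libraries were fitted with no filter on low counts in edgeR 4.0.16 (R 4.3.3), using TMM scaling, a coefficient per strain and the quasi-likelihood test. Adjusted p values are Benjamini-Hochberg values over the 14242 genes, and a call needed an adjusted p of at most 0.05 and a change of at least 2-fold. Standard errors are the unshrunk log2 fold change, fitted without a prior count, divided by the root of the F statistic. The log2 fold changes printed are those with edgeR's prior count. The 95% intervals are centered on the printed values and use the test's degrees of freedom. Intervals on summed counts are exact, and both these and the floor of 3 reads cover counting error only, since reads carried no molecular identifiers. The procedure was tested on simulated counts. Replicate numbers did not pair the samples (correlations of same-numbered libraries from -0.19 to 0.14). The members and gene lists were chosen with earlier results of these data known. Genes named were the acetate transporters, the 3 gene models on either side, the 3 most similar genes for members with a mean of at least 10 reads, and the listed sugar/inositol and SLAC1/Mae1 transporters. The alternatives were other scalings, limma voom (limma 3.58.1), DESeq2 1.42.0, a low-count filter, other priors, thinning, a replicate block and leaving out each library. The authors' own fold changes and p values were not used, and no genome sequence was used here.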

Additional observations from a re-analysis of the deposited data

How the results depend on the processing

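No difference of the 3 genes changed direction under any alternative run. Of the 3 acetate transporters, 2 were called in each mutant, and leaving out 1 library gave 1 to 2 calls in Δcre1-43 (1 without Δcre1-43 replicate 2) and 1 to 2 in Δcre1-91 (1 without Δcre1-91 replicate 1). With limma voom 1 gene was called in Δcre1-91. The log2 fold change of 399446 ran from 3.19 to 4.38 in Δcre1-43 and from 1.77 to 2.83 in Δcre1-91 when 1 library was left out, and that of 441597 from 0.86 to 1.63 and from 1.51 to 1.84. The other alternatives gave 3.59 to 3.75 and 1.93 to 2.29 for 399446, and 1.29 to 1.44 and 1.61 to 1.88 for 441597. With the replicate number as a block, the same 2 genes were called in each mutant (399446 at 3.65 and 2.12, 441597 at 1.44 and 1.88), and the block changed no other call on the 3 genes. Deviations of same-numbered mutant libraries from their strain means had a weak negative correlation (r = -0.19). With 2 libraries per mutant, crossing the numbers only reverses that sign. With the numbers crossed, an alternative added after seeing the data, 1 gene (399446) was called between Δcre1-43 and Δcre1-91 instead of 0. The crossing was picked from those deviations, so nothing is read from that call. Of the 51 other listed transporters, 42 were called in Δcre1-43 and 38 in Δcre1-91, 31 to 43 and 28 to 39 with 1 library left out, and 39 to 44 and 36 to 42 otherwise. Depth limits 500954 most, with no library above 12 reads. Pairs of mutant libraries leave each mutant's spread resting on the spread shared by all strains.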
